A study of Homo sapiens with 6 samples.

Results

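Krüppel-like factors (KLFs) are transcription factors that bind GC-rich and CACCC sequences in promoters and enhancers. The 10 genes described here are KLF3, KLF4, KLF5, KLF6, KLF7, KLF9, KLF10, KLF12, KLF13 and KLF16, taken by symbol from a table of 27452 rows. The set was chosen by the strong fall of KLF12 in this same comparison, so the differences of the 10 genes between the groups are descriptions and are given without tests. RNA sequencing counts came from 6 libraries whose label names HepG2, a long-used human liver cancer line, 3 with a control short hairpin RNA (shRNA) and 3 with an shRNA against the transcription factor STAT3. Both groups were lines constructed with their hairpin and grown in the same serum-containing medium. The labels do not say which hairpin sequences were used, whether a line was 1 clone or a mixture, or whether libraries 1 to 3 of a group were separate cultures. The spread between libraries may therefore be technical, and any other difference between the constructed lines cannot be told apart from that of the hairpins.

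KLFs share a DNA-binding domain of zinc fingers at the carboxyl end and differ in the rest of the protein, which sets their partners. KLF3 and KLF12 belong to the branch that recruits the corepressor CtBP. KLF9, KLF10, KLF13 and KLF16 belong to the branch that recruits Sin3A and histone deacetylases. KLF4, KLF5, KLF6 and KLF7 act mainly as activators and bind acetyltransferases. In liver and other epithelia the family is known for effects on growth arrest, differentiation, lipid metabolism and the response to hormones and growth factors.

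Promoter windows are shown for KLF12 and KLF9, the pair of genes with the largest differences in level. Sequences are from RefSeq on GRCh38.p14 and cover the 250 bases before an annotated start, 5′ to 3′ on the gene's own strand. KLF12 has 4 annotated starts there and KLF9 has 1. Capitals mark matches on either strand to GGGCGG, the GC box, and CACCC, the CACCC box. The KLF12 window is that of its start number 2, counted from the most upstream one, chr13:74134405-74134654 on the minus strand, and the KLF9 window is chr9:70414658-70414907, also on the minus strand. No base of either window lies in an exon annotated in GENCODE release 29, which uses the same assembly.
KLF12: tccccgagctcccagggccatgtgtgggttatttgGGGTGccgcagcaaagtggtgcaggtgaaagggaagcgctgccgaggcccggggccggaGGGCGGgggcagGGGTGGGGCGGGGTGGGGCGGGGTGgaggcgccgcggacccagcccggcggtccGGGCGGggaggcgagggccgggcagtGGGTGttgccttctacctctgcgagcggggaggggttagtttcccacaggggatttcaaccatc
KLF9: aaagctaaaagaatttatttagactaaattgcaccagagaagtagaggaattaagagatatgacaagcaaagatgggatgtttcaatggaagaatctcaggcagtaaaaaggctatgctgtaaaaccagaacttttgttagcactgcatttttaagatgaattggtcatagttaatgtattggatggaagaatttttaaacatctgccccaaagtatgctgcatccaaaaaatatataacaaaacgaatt
The KLF12 window held 4 GGGCGG and 5 CACCC matches, most of them in a GC-rich repeat where neighbouring matches abut or share a base, and its GC content was 72%. The KLF9 window held neither and had a GC content of 32.4%. Of all 35116 promoter windows of this length in the table, 42.6% held GGGCGG and 54.7% held CACCC. The other KLF12 starts differed from this one: start number 3 held 5 CACCC matches and no GGGCGG, and starts number 1 and number 4 held neither.

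The table had entries for 8 of the 10 genes, with 15 starts in all. KLF3 and KLF10 had none. GGGCGG was found at 7 of the 15 starts and CACCC at 7. The palindrome TTCNNNGAA, the core of the element that STAT factors bind, was found at 1 of the 15 starts, against 6.57% of all windows. That match, in capitals with its flanks, was at start number 4 of KLF7, chr2:207134191-207134219 on the minus strand, from 72 to 64 bases before the start.
KLF7: gatgactgtgTTCCAGGAAggagccaatg
KLF12 and KLF9 had no match to TTCNNNGAA in any of their windows, which says only that these letters are not in the windows searched.

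The libraries held 17408543 to 25862027 counts. Levels are given as CPM, in which each count is divided by a library size corrected for composition. STAT3 checked the labels: its values were 261.5, 246.7 and 246.3 CPM with the control shRNA and 34.8, 35.8 and 36.2 CPM with the shRNA against it. Of 19 hepatocyte markers, 11 had a row and the other 8 were not analysed here, and 5 of the 11 (ALB, APOA1, APOA2, FGG and HP) had no more than 3 counts in any library. Albumin and the plasma apolipoprotein genes APOA1 and APOA2, which HepG2 is known to express, were thus near 0 in libraries of both groups. The 11 markers summed to 45.1 to 49.7 CPM in control and 67.3 to 70.1 CPM in STAT3 shRNA libraries, with FOXA1, CEBPA, HNF4A, TF and RBP4 reaching 1 CPM. FOXA1 made up most of this sum, at means of 35.1 CPM in control and 49.2 CPM in STAT3 shRNA libraries. Without FOXA1, left out after the data were seen, the other 10 summed to 10.4 to 13.4 CPM and 16.5 to 22.6 CPM. Not all markers were higher: TF (means of 1.59 and 0.806 CPM) and RBP4 (1.31 and 1.14 CPM) had lower means, with overlapping groups. For 7 fibroblast and stellate markers the sums were 56.3 to 65.7 CPM and 42.5 to 45.3 CPM. COL1A1 set the direction of that sum, at a mean of 40.3 CPM in control and 15.3 CPM in STAT3 shRNA libraries. Without it, a choice made after the data were seen, the other 6 summed to 18.0 to 22.2 CPM and 28.2 to 30.3 CPM. That sum was higher with the STAT3 shRNA, but COL3A1, near 0, was lower (means of 0.197 and 0.0125 CPM). The groups of PDGFRB overlapped. For 3 blood cell markers the sums were 11.2 to 15.7 CPM and 20.8 to 28.2 CPM, nearly all of it CD68, and for 3 endothelial markers 1.21 to 1.76 CPM and 1.28 to 1.74 CPM. The hepatocyte, fibroblast and stellate, and blood cell sums separate the groups, and their part in the results below was not tested. In bulk RNA, fewer cells with a transcript and less of it per cell cannot be told apart.

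Of the 10 KLF genes, 2 lay far lower with the STAT3 shRNA, KLF12 and KLF9, each by about an order of magnitude, and the other 8 lay within 1.5-fold of the control mean. In the fit across all 14999 tested genes, all 10 passed the filter on low counts. A false discovery rate (FDR) of 0.05 was passed by 17.5% of all tested genes, 9.39% higher and 8.13% lower (53.6% of calls higher, against 62.3% under upper-quartile scaling and 68.7% when library totals were used), and by 3 of the 10 KLF genes, KLF12, KLF9 and KLF13, all lower. The groups did not overlap in 35.7% of all tested genes and in 4 of the 10, all lower (17.2% of all tested genes in that direction). As the comparison itself chose the set, nothing is read from these counts. Log2 fold changes set the STAT3 shRNA over the control and are given ± SE, and mean levels are ± SD with n = 3 per group. The median log2 fold change of the 10 was -0.18, against -0.0067 over all tested genes.

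**Figure D1:**
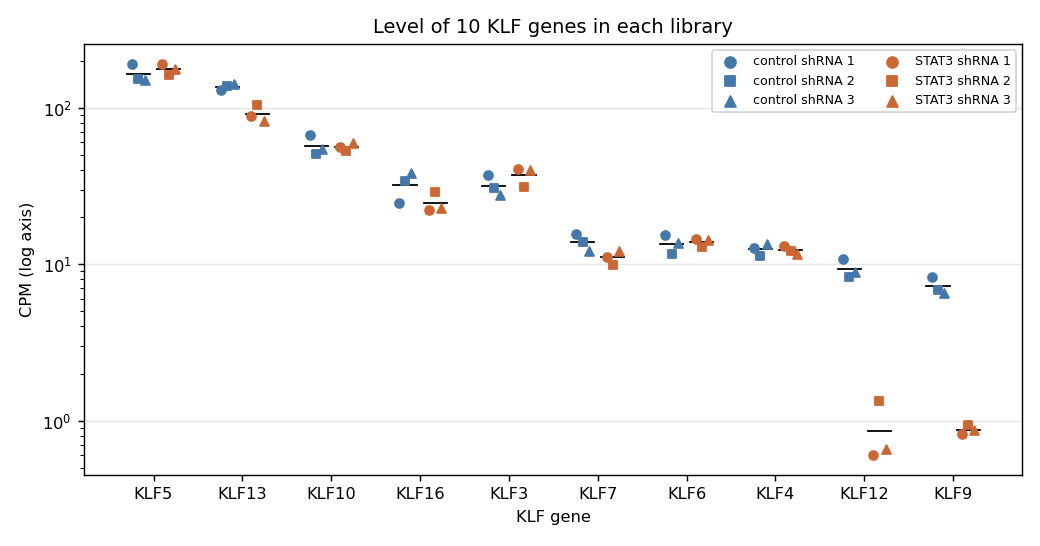
CPM of the 10 KLF genes in each library on a log axis, ordered by control mean, with blue points for control shRNA, orange points for STAT3 shRNA, marker shapes for library numbers and bars for group means. KLF12 and KLF9 lie between 6.54 and 10.8 CPM in the control libraries and between 0.601 and 1.33 CPM in the STAT3 shRNA libraries.

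Among the CtBP-binding repressors, KLF12 was read 186, 155 and 169 times with the control shRNA and 16, 27 and 12 times with the STAT3 shRNA. KLF12, also called AP-2rep, is known as a repressor of the gene for the transcription factor AP-2 alpha. Its levels were 10.8, 8.27 and 8.91 CPM in control libraries 1, 2 and 3 and 0.601, 1.33 and 0.654 CPM in STAT3 shRNA libraries 1, 2 and 3. The groups lay far apart, and STAT3 shRNA library 2 stood above the other two of its group. The mean of KLF12 went from 9.34 ± 1.34 to 0.86 ± 0.404 CPM, 10.9-fold lower, with a fitted log2 fold change of -3.44 ± 0.296. A fitted value of -3 or lower was reached by 60 tested genes, or 0.4%. KLF3, a repressor known from fat cells, muscle and red blood cells, measured 37.3, 30.5 and 27.5 CPM with the control shRNA against 40.4, 31.0 and 39.8 CPM with the STAT3 shRNA. These ranges overlap, and the log2 fold change of KLF3 was 0.22 ± 0.147. Its antisense neighbour KLF3-AS1 had 4 to 16 counts per library against 522 to 1076 of KLF3.

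In the Sin3A-binding branch, KLF9 was the gene with the large difference. KLF9 is induced by glucocorticoids and thyroid hormone in many tissues and was first described as a protein binding the basic transcription element of CYP1A1. It was read 143, 128 and 124 times with the control shRNA and 22, 19 and 16 times with the STAT3 shRNA. These counts correspond to 8.34, 6.83 and 6.54 CPM and to 0.827, 0.933 and 0.872 CPM. The 3 STAT3 shRNA libraries were close to each other and all well below the lowest control library. The mean of KLF9 went from 7.24 ± 0.967 to 0.877 ± 0.0533 CPM, 8.25-fold lower, with a log2 fold change of -3.04 ± 0.208.

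KLF13, known from T cells as an activator of the chemokine gene CCL5, was moderately lower. Its control values were 129.7, 137.1 and 141.2 CPM, and its STAT3 shRNA values were 89.1, 104.0 and 81.8 CPM. Every STAT3 shRNA library was below every control library, and the log2 fold change of KLF13 was -0.57 ± 0.105. KLF16, a GC-box repressor, measured 24.8, 33.8 and 38.0 CPM with the control shRNA against 22.1, 28.9 and 23.0 CPM with the STAT3 shRNA, a log2 fold change of -0.39 ± 0.17. Control library 1 fell inside the range of the STAT3 shRNA libraries for KLF16, so the groups overlap. An annotated gene on the opposite strand, AC012615.3, had 8 to 91 counts per library against 421 to 721 of KLF16, and without a stated strand setting their reads cannot be separated. KLF10, an early gene of the TGF-beta response, measured 67.4, 50.5 and 54.1 CPM against 55.8, 52.8 and 59.4 CPM. The groups overlap, with a log2 fold change of -0.034 ± 0.122.

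Of the activators, KLF4, KLF5 and KLF6 lay close to their control levels, and KLF7 was somewhat lower. KLF5, which drives proliferation in intestinal and other epithelia, measured 191.5, 153.2 and 149.3 CPM with the control shRNA against 189.5, 161.2 and 177.4 CPM with the STAT3 shRNA. The log2 fold change of KLF5 was 0.097 ± 0.116, and its groups overlap. KLF4, which promotes growth arrest and differentiation of epithelia and is one of the factors used to reprogram cells, lay between 11.2 and 13.5 CPM in control and between 11.6 and 13.1 CPM in STAT3 shRNA libraries. KLF6, a gene induced by injury and growth signals, lay between 11.6 and 15.4 CPM and between 12.9 and 14.5 CPM. For both genes the STAT3 shRNA range fell inside the control range, with log2 fold changes of -0.022 ± 0.126 for KLF4 and 0.041 ± 0.136 for KLF6. KLF7, a factor of neuron development, measured 15.5, 13.8 and 12.1 CPM against 11.2, 9.87 and 12.1 CPM. The lowest control value of KLF7, 12.12 CPM, and its highest STAT3 shRNA value, 12.10 CPM, all but touch, and its log2 fold change was -0.32 ± 0.14.

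**Figure D2:**
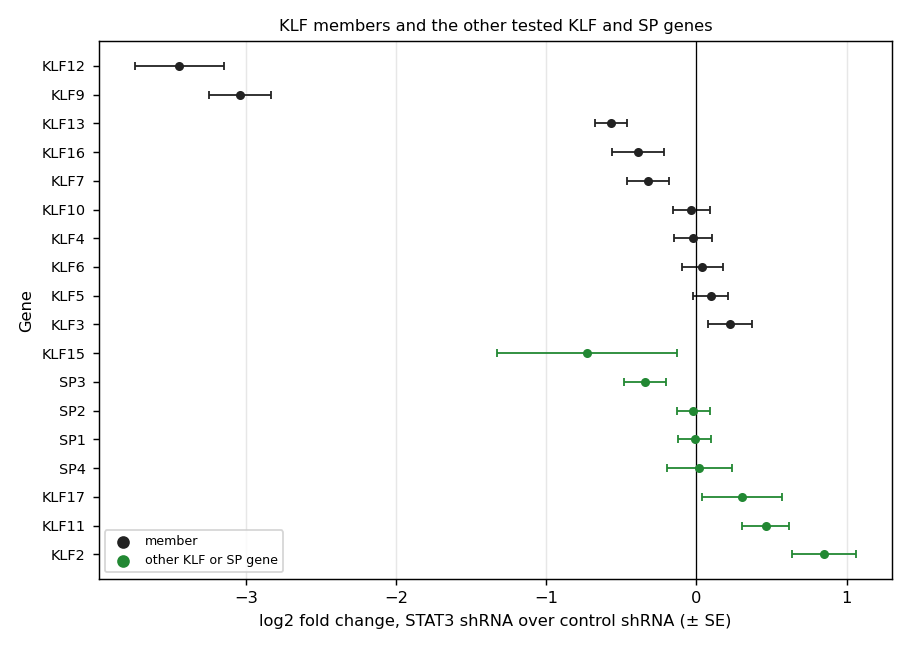
Log2 fold change of each gene, STAT3 shRNA over control shRNA, with bars of ± SE, black for the 10 KLF members and green for the 8 tested KLF and SP genes outside the set. KLF12 at -3.44 and KLF9 at -3.04 lie apart, and the other 16 genes lie between -0.73 and 0.85.

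To compare levels between genes, CPM was divided by the length of each gene's merged exons in kilobases. On this scale KLF5 led in both groups, at 42.3 ± 6.0 CPM per kb in control and 45.2 ± 3.65 CPM per kb in STAT3 shRNA libraries. KLF13 (14.5 ± 0.623), KLF10 (14.3 ± 2.23) and KLF16 (10.9 ± 2.29 CPM per kb) followed in the control libraries, and the first 2 of these did not differ beyond their spread. In the STAT3 shRNA libraries KLF10 (14.0 ± 0.824 CPM per kb) came before KLF13 (9.74 ± 1.2) and KLF16 (8.33 ± 1.25), the last 2 with overlapping ranges over the libraries. KLF3, KLF4, KLF6 and KLF7 came next in this order in both groups, from 5.05 ± 0.799 down to 1.49 ± 0.183 CPM per kb in the control libraries. KLF9 and KLF12 were the lowest of the 10 already in the control libraries, at 1.40 ± 0.187 and 0.855 ± 0.123 CPM per kb. KLF7 and KLF9 lay within their spread of each other there. In the STAT3 shRNA libraries KLF9 and KLF12 lay at 0.17 ± 0.0103 and 0.0788 ± 0.037 CPM per kb, well below KLF7 at 1.19 ± 0.121.

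The length-scaled levels of the 10 genes summed to 96.4 ± 7.03 CPM per kb in control and 90.2 ± 3.1 CPM per kb in STAT3 shRNA libraries, with overlapping ranges. Of this sum, KLF12 took 0.885 ± 0.0617% in control and 0.0882 ± 0.0444% in STAT3 shRNA libraries, and KLF9 took 1.45 ± 0.0958% and 0.188 ± 0.0179%. The pair with the large differences thus made up a small part of the KLF transcripts in both groups. KLF5 took 47.1%, 43.1% and 41.1% with the control shRNA and 52.2%, 47.5% and 50.5% with the STAT3 shRNA, which do not overlap. A share also moves when other genes of the sum differ. The level of KLF5 itself overlapped, at 38.3 to 49.2 CPM per kb in control and 41.4 to 48.7 CPM per kb in STAT3 shRNA libraries. KLF13 took 15.1 ± 1.63% and 10.8 ± 1.63%, with every STAT3 shRNA library below every control library.

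**Figure D3:**
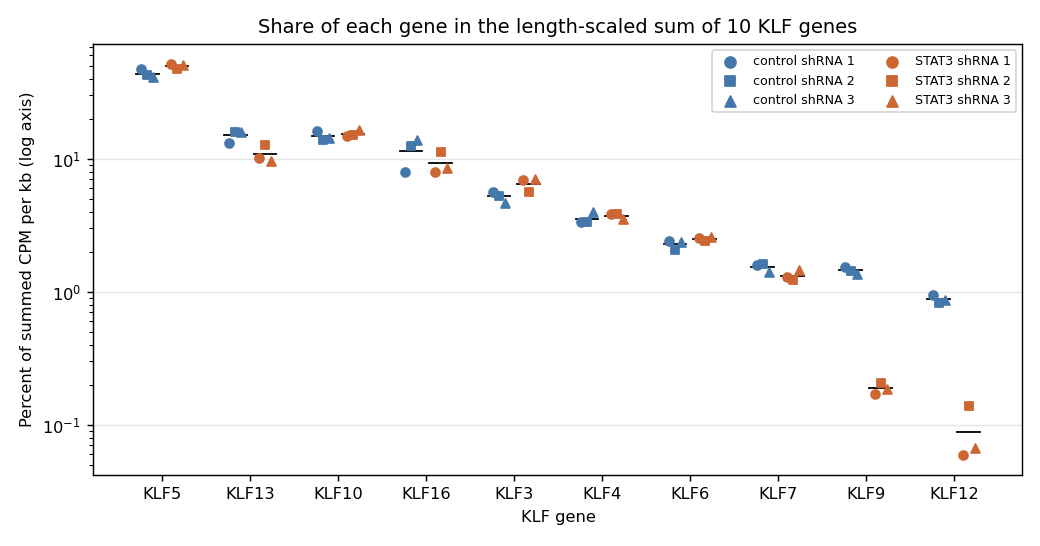
Percent of the summed CPM per kb of the 10 KLF genes taken by each gene in each library, on a log axis, with blue points for control shRNA, orange points for STAT3 shRNA and bars for group means. KLF5 takes 41.1% to 52.2% in all 6 libraries, and KLF12 and KLF9 drop from 0.829% to 1.54% in the control libraries to 0.059% to 0.207% in the STAT3 shRNA libraries.

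The pattern of KLF12 over the 6 libraries was set beside that of the 12318 other tested protein-coding genes, by the root mean square difference of log2 CPM after each gene was centred on its own mean. The nearest was FN1, which encodes the matrix protein fibronectin, at a difference of 0.108. FN1 was read 229, 190 and 203 times with the control shRNA and 20, 39 and 18 times with the STAT3 shRNA, with library 2 the highest of its group, as for KLF12. Next came GYG2, a glycogenin that primes glycogen (0.242), the carboxypeptidase gene CPM (0.336), the glycosyltransferase family member GALNTL6 (0.341) and SV2B, a synaptic vesicle protein (0.348). KLF9 ranked 7 by this measure, at 0.369. With 2 groups among the 6 libraries, this measure places first the genes whose difference between the groups is close in size to that of KLF12. It also favours genes with the same order of libraries within a group. The likeness of FN1 to KLF12 in library 2 therefore follows in part from how FN1 was picked.

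In the rest of the KLF and SP family, 1 of 8 tested genes was called, and it rose. That is 12.5%, against 17.5% of all tested genes in either direction and 9.39% higher, so nothing is read from this count. Of 17 genes listed, KLF1 and SP7 were not analysed here. No gene was called lower by edgeR or DESeq2, with 1 at an unadjusted p under 0.05, though 2 were called lower without control library 3. The median log2 fold change of the 8 was 0.0053, against -0.0067 for all tested genes. KLF2, a factor of endothelial quiescence closely related to KLF4, rose from 2.52 ± 0.474 to 4.56 ± 0.504 CPM (log2 fold change 0.85 ± 0.213, edgeR adjusted p = 0.0239). The call of KLF2 was lost without any 1 of the 3 STAT3 shRNA libraries, with adjusted p from 0.0508 to 0.11. KLF11, the nearest relative of KLF10 and named after its values were seen, lay at 26.0 ± 5.26 and 35.7 ± 4.56 CPM and missed the threshold (0.46 ± 0.158, edgeR adjusted p = 0.0772). It passed in 5 of 12 alternative fits, among them DESeq2 (adjusted p = 0.0472). KLF8, the CtBP-binding relative of KLF3 and KLF12, had 1 count in all 6 libraries together.

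Of 24 tested genes for KLF partners, 5 were called higher and 0 lower. This share of 20.8% stood against 17.5% of all tested genes in either direction and 9.39% higher. The list median was 0.0044. By edgeR 2 of the 24 were lower at an unadjusted p under 0.05, both named after their values were seen. They were SIN3B (-0.23 ± 0.0892, edgeR adjusted p = 0.114) and HDAC1 (-0.23 ± 0.0984, edgeR adjusted p = 0.153). DESeq2 and the other 11 alternative fits also called 0 lower. KDM1A, the histone demethylase LSD1 of the CtBP complex, rose from 253 ± 15.9 to 457 ± 17.5 CPM (0.85 ± 0.0841, edgeR adjusted p = 1.93e-04). SAP30, a Sin3A complex subunit, rose from 29.3 ± 4.64 to 47.3 ± 3.26 CPM (0.69 ± 0.129). The acetyltransferase KAT2B (0.70 ± 0.2), the histone chaperone RBBP4 (0.32 ± 0.0919) and WIZ, a partner of the methyltransferases EHMT1 and EHMT2 (0.32 ± 0.0939), also rose, WIZ being named after its values were seen. Calls were lost for KAT2B in 4, RBBP4 in 7 and WIZ in 8 of 12 alternative fits, and the count of 5 was 2 after removal of control library 2, STAT3 shRNA library 1 or STAT3 shRNA library 3. It was 3 after removal of control library 3 or STAT3 shRNA library 2, and 3 with library number as a block. Like SIN3B and HDAC1, the corepressor genes CTBP1 (-0.0033 ± 0.122), CTBP2 (-0.087 ± 0.092) and SIN3A (-0.037 ± 0.104) did not pass the test. These 3 were also named after their values were seen.

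Genes described as targets of these KLFs were called in both directions. Of 25 listed, TGFB1 was not analysed here and 21 were tested, and 6 rose and 4 fell, or 47.6% against 17.5% of all tested genes, with a list median of 0.029. The list was drawn up with large changes of ALPI, KRT4 and ENG already known, so its share of called genes is not evidence about the KLFs. Those 3 have the largest changes in it. ALPI, intestinal alkaline phosphatase and a described KLF4 target, fell from 1182 ± 207 to 8.33 ± 2.05 CPM, and its reads may be shared with related phosphatase genes next to it. KRT4, an epithelial keratin that KLF4 is described to activate, rose from 1.23 ± 0.382 to 51.6 ± 1.79 CPM. ENG, or endoglin, which KLF6 is described to activate, rose from 1.23 ± 0.275 to 26.9 ± 0.614 CPM. KLF4 and KLF6 themselves lay at their control levels within the spread of the libraries, and their part in these changes was not tested. ATF3, a stress-induced factor described as a KLF6 target, rose (0.91 ± 0.119, edgeR adjusted p = 8.11e-04).

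The other called targets are named after their values were seen. TFAP2A, the AP-2 alpha gene that KLF12 is known to repress, fell from 180 ± 5.98 to 128 ± 7.93 CPM. Its log2 fold change was -0.49 ± 0.0844 (edgeR adjusted p = 0.00395). TFAP2A and KLF12 were both lower with the STAT3 shRNA, and a link between them was not tested. CYP1A1, the xenobiotic oxidase whose promoter element KLF9 binds, rose from 7.48 ± 0.849 to 14.6 ± 0.622 CPM (0.96 ± 0.132). FGFBP1, a KLF5 target that carries fibroblast growth factors, fell (-0.90 ± 0.156), and PDGFA, another KLF5 target, rose (0.71 ± 0.127). The keratin KRT19 rose (0.69 ± 0.116). Galectin gene LGALS3, described as repressed by KLF3, fell (-0.39 ± 0.0941), though 4 of 12 alternative fits did not call it. The cell cycle inhibitor CDKN1A, a described target of KLF4, KLF6 and KLF7, did not pass the test (-0.23 ± 0.136, edgeR adjusted p = 0.281), nor did CCL5 (0.029 ± 0.22, adjusted p = 0.946), the described target of KLF13.

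**Figure D4:**
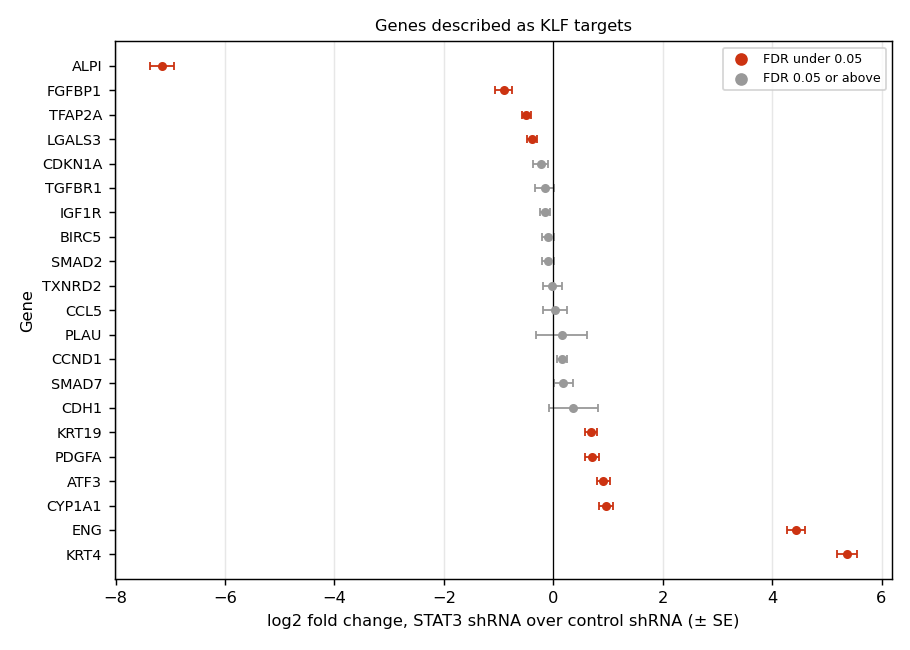
Log2 fold change of the 21 tested genes described as KLF targets, STAT3 shRNA over control shRNA, with bars of ± SE, red where the FDR is under 0.05 and grey otherwise. ALPI at -7.15, ENG at 4.44 and KRT4 at 5.37 lie far from the rest, which lie between -0.90 and 0.96.

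Other genes induced by the hormones and growth factors that induce KLF9 and KLF10 were called in both directions. Among 6 glucocorticoid-inducible genes, PER1 was not analysed here and 3 were tested, of which 1 rose and 1 fell (66.7%, against 17.5% of all tested genes). The phosphatase gene DUSP1 rose from 108 ± 12.1 to 192 ± 17.8 CPM (0.82 ± 0.111), and TSC22D3, or GILZ, fell from 38.3 ± 5.38 to 26.7 ± 1.58 CPM (-0.52 ± 0.121). TSC22D3 was not called after removal of control library 2 or of any 1 STAT3 shRNA library. FKBP5, a defining glucocorticoid target named after its values were seen, was not tested, with at most 1 count per library. SGK1, also named after its values were seen, was tested and did not pass (0.014 ± 0.1). Among 8 TGF-beta-inducible genes, all tested, 1 rose and 1 fell (25%, against 17.5% of all tested genes), with a list median of -0.17. Both lists are too short for their shares to be read as results. The matricellular gene CCN2 rose from 15.4 ± 0.603 to 33.6 ± 9.37 CPM (1.12 ± 0.183) and the TGF-beta feedback gene PMEPA1 fell (-0.56 ± 0.109). Without control library 3 the lower count was 2.

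KLF5 and KLF12 are neighbours on chromosome 13, with no other tested protein-coding gene between them, and the genes around them are described here. Of the 10 tested protein-coding genes, 5 on each side, 1 was called, or 10% against 17.5% of all tested genes. It was the protocadherin gene PCDH9, which rose from 2.73 ± 0.602 to 5.75 ± 0.646 CPM (1.07 ± 0.215, edgeR adjusted p = 0.00865). None was lower by edgeR, by DESeq2 or at an unadjusted p under 0.05, and the median of the 10 was 0.068. TBC1D4, next to KLF12 on its far side and named after its values were seen, lay at 88.7 ± 9.93 and 103 ± 8.18 CPM. Log2 fold changes were 0.097 for KLF5 and 0.21 for TBC1D4, beside -3.44 for KLF12. Without control library 1, 3 of the 10 neighbours were called higher. The cause of the difference at KLF12 was not tested.

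Around KLF9, on chromosome 9, neighbouring genes were named after their values were seen, and no count over them is given. MAMDC2, which encodes a secreted protein with MAM domains, was read 62, 68 and 68 times with the control shRNA and 1, 1 and 0 times with the STAT3 shRNA. SMC5, a chromosome maintenance gene that lies between MAMDC2 and KLF9, lay at 32.4 ± 5.66 and 27.5 ± 3.48 CPM, and its groups overlap. The guanine deaminase gene GDA rose from 293 ± 46.9 to 400 ± 32.9 CPM, though 4 of 12 alternative fits did not call GDA.

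**Figure D5:**
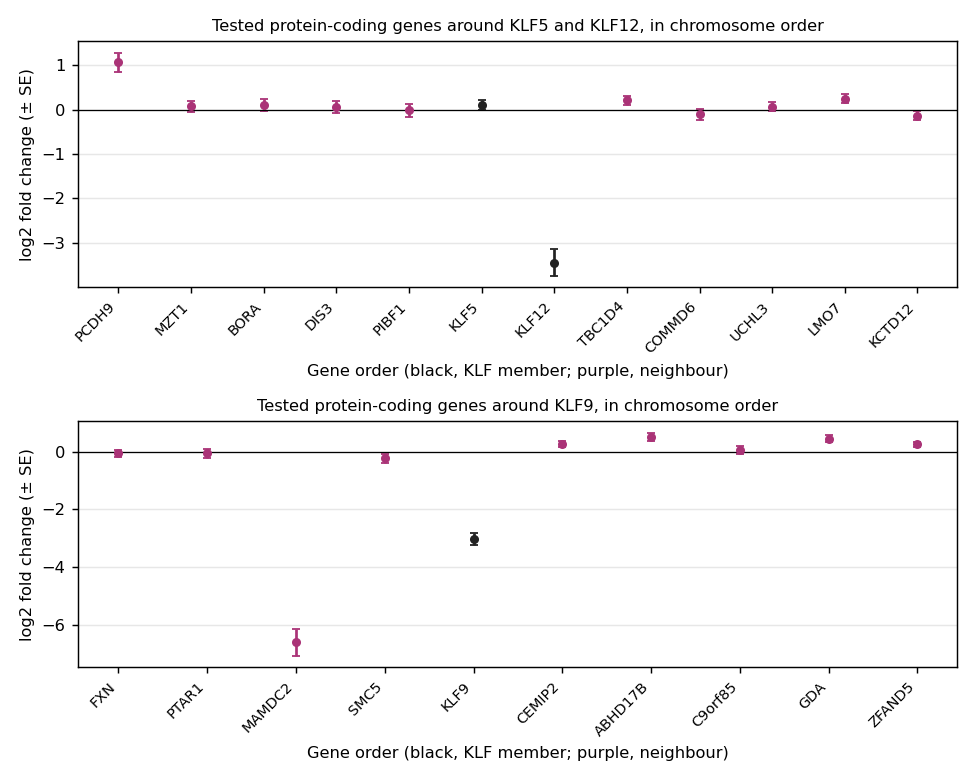
Log2 fold change ± SE of tested protein-coding genes in chromosome order, not all of them shown around KLF9, with KLF5 and KLF12 in black in the upper panel, KLF9 in black in the lower panel and their neighbours in purple. KLF12 at -3.44 stands alone among its neighbours, and near KLF9 at -3.04 MAMDC2 is also far below 0 while SMC5 between them is at -0.23.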

How the data were processed

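Per the file headers, the deposited table gives counts per gene, as whole numbers with no normalization, for 6 libraries (3 control shRNA, 3 STAT3 shRNA). The aligner, counter, strand setting and build were not given in the sources used here. Of 26420 Ensembl identifiers, 25996 were found in GENCODE release 29, used for gene type, order and merged exon length.

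The genes and lists were chosen with earlier results of these data known. Counts were fitted in R 4.3.3 with edgeR 4.0.16 (filterByExpr, minimum count 10 and total 15, TMM, robust quasi-likelihood F test, group only), adjusted by Benjamini-Hochberg over 14999 genes. TMM assumes that most genes do not differ. SE is the log2 fold change over the square root of F. The fit was tested on simulated data. The rule named 30 genes: STAT3, the 10 KLFs, up to 4 called genes per list by FDR, called neighbours of KLF5 and KLF12, and the 5 genes most like KLF12. Others were named after their values were seen. The 12 alternatives were 3 other scalings, no filter, DESeq2 1.42.0, library number as a block and each library left out. Pairs of libraries within a group differed by 4.20 to 43.0 chi-square per degree of freedom, so none repeats another. Some genes of the lists and neighbourhoods are not reported here and were left out of them.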

Additional observations from a re-analysis of the deposited data

How the results depend on the processing

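KLF12 and KLF9 stayed far lower in all 12 alternative fits, from -3.89 to -3.22 for KLF12 and from -3.10 to -2.91 for KLF9 on the log2 scale, and KLF12 reached -3.89 without STAT3 shRNA library 2. The count of 3 lower KLFs was 4 without control library 1 and 3 in the other 11 fits. KLF4, KLF6 and KLF10 took either sign, within -0.122 to 0.154, and the sign of each depended on scaling or on the libraries used. All genes called numbered 2627 and ranged from 1462 to 4098 when 1 library was left out (796 to 2068 higher, 666 to 2030 lower). The 4098 came without control library 1. That library differed from control libraries 2 and 3 by 17.1 and 43.0 chi-square per degree of freedom, against 13.9 between libraries 2 and 3. Of the other KLF and SP genes, 2 were called higher with library totals, no filter, DESeq2 or the replicate block, 0 to 2 with 1 library left out, and 0 to 2 lower. KLF partners called higher were 3 with no filter and 3 with the replicate block, and 2 to 6 with 1 library left out. Leaving out 1 library gave 0 to 1 lower glucocorticoid-inducible genes, 1 to 2 lower TGF-beta-inducible genes and 1 to 3 higher neighbours of KLF5 and KLF12. The cause of these moves was not tested. Fewer libraries enter a fit that leaves 1 out, yet calls rose without control library 1. The labels do not say that library numbers pair libraries, so they were not taken as pairs. Correlations of deviations from group means were 0.279, 0.191 and -0.227 between same-numbered libraries. Between libraries of different numbers they ran from -0.461 to 0.333. The replicate block gave KLF12 at -3.47. With the longest transcript as gene length, a choice added after the data were seen, the order of the 10 KLFs was the same in each group, and KLF13 took 18.1% and 13.1% of the sum. In the STAT3 shRNA libraries KLF12 and KLF9 rest on 12 to 27 counts, which limits their precision.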
